A study of Homo sapiens with 6 samples.

Results

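The genes of TGF-beta, BMP and activin signalling were read out in the established human melanoma line WM164, in cells overexpressing GFP as the control (3 libraries) and in cells overexpressing T-MGM (3 libraries). T-MGM is a tethered dimer in which the melanocyte form of MITF is joined through a flexible linker to MAFG. Both constructs were given by lentivirus with an EF1α promoter and a blasticidin marker, and both groups were grown in RPMI medium that held serum (5%) and antibiotics (1%). A list of 47 ligands, receptors, SMADs, latent binding proteins, antagonists and ID genes was matched by gene name to the 58870 rows of the count table, and 46 were found. The row that carries the identifier of TGFB1, ENSG00000105329.9, is listed under the name AC011462.1. TGFB1 is therefore described by its identifier and stands outside every count of members given here.

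Ligands of this family bind a complex of type I and type II receptor kinases, which phosphorylate the receptor-regulated SMADs. TGF-beta and activin receptors act mainly through SMAD2 and SMAD3, and BMP receptors through SMAD1, SMAD5 and SMAD9. These SMADs join SMAD4 and enter the nucleus, where the ID genes are well known BMP targets. In melanoma the family is known for effects on growth, on invasion and on the pigment cell programme, and cultured melanoma cells commonly secrete TGF-beta ligands.

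Total counts were 35057239 to 38738065 in the GFP libraries and 44577774 to 59250663 in the T-MGM libraries. The summed TPM (a level scaled for transcript length and depth) of 7 melanoma markers was 1144 to 1168 in GFP and 972 to 1009 in T-MGM, whereas 8 markers of other cell types, led by LUM, summed to 3.81 to 4.19 and 4.41 to 6.38. By normalized counts 3 of the melanoma markers passed as higher and 4 as lower in T-MGM. The lower ones were DCT, MLANA, TYR and S100B, with log2 fold changes of -2.49, -0.68, -0.35 and -0.21. For the higher ones the log2 fold changes were 0.05 to 0.11. The 3 higher ones, MITF, SOX10 and PMEL, had lower mean TPM in T-MGM (133, 403 and 237) than in GFP (138, 416 and 252). Of the markers of other cell types LUM passed as higher. PDGFRB did so barely (DESeq2 adjusted p = 0.0482), with 2 to 15 reads in GFP, 16 to 58 in T-MGM and TPM that overlapped. PECAM1 did not pass. KRT5, KRT14, COL3A1, PTPRC and CDH5 had at most 5 reads in any library and could not be tested. The part of other cell types in the changes below was not tested. In these bulk libraries, fewer cells of a type and less RNA per cell cannot be told apart. Of the genes in the construct, MAFG was not higher in T-MGM, with normalized counts of 2397 to 2535 in GFP and 2327 to 2396 in T-MGM (DESeq2 adjusted p = 0.236). MITF had 19111 to 19204 and 20121 to 20447, which do not overlap (log2 fold change 0.08, adjusted p = 4.8e-07). In TPM the direction was the opposite, with MITF at 136.57 to 139.34 in GFP and 129.61 to 135.03 in T-MGM. The reason for the MAFG and MITF values was not tested, and the groups rest on the sample titles. Nothing in the sources used here says that the replicates were separate cultures, so the p-values measure the spread between these libraries, which may be technical.

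INHBA, TGFB2, the 4 LTBP genes, SMAD1 and ID1 to ID3 rose in T-MGM, while SMAD2, SMAD3 and SMAD4 fell. Of the 46 members, 40 could be tested and 28 passed an adjusted p of 0.05 in DESeq2, 17 of them higher and 11 lower in T-MGM. Over all genes tested, 38.4% passed, 19.2% higher and 19.2% lower. Of the 35 members averaging 50 or more normalized counts, 28 passed, against 54.0% of all genes at that level. A gene was called where it also changed over 2-fold. The 5 called members were LTBP2, INHBA, SMAD1, ID1 and ID3, all higher, where 4.63% of the genes tested were called, 3.26% higher and 1.36% lower. Among genes with a mean of at least 50 the share called was 3.21%. The groups did not overlap in 31 of the 40 tested members, against 46.8% of the genes tested. With a mean of at least 50 this held for 28 of 35 members and 7683 of 12652 genes. The median log2 fold change (T-MGM over GFP throughout) was 0.20 over the 40 members and -0.0027 over all genes tested. No member was called lower, with 0 in DESeq2, 0 at an unadjusted p under 0.05 with the same fold limit, and 0 in edgeR. With 1.36% of all genes tested called lower, 0 of 40 members lies near that share.

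**Figure D1:**
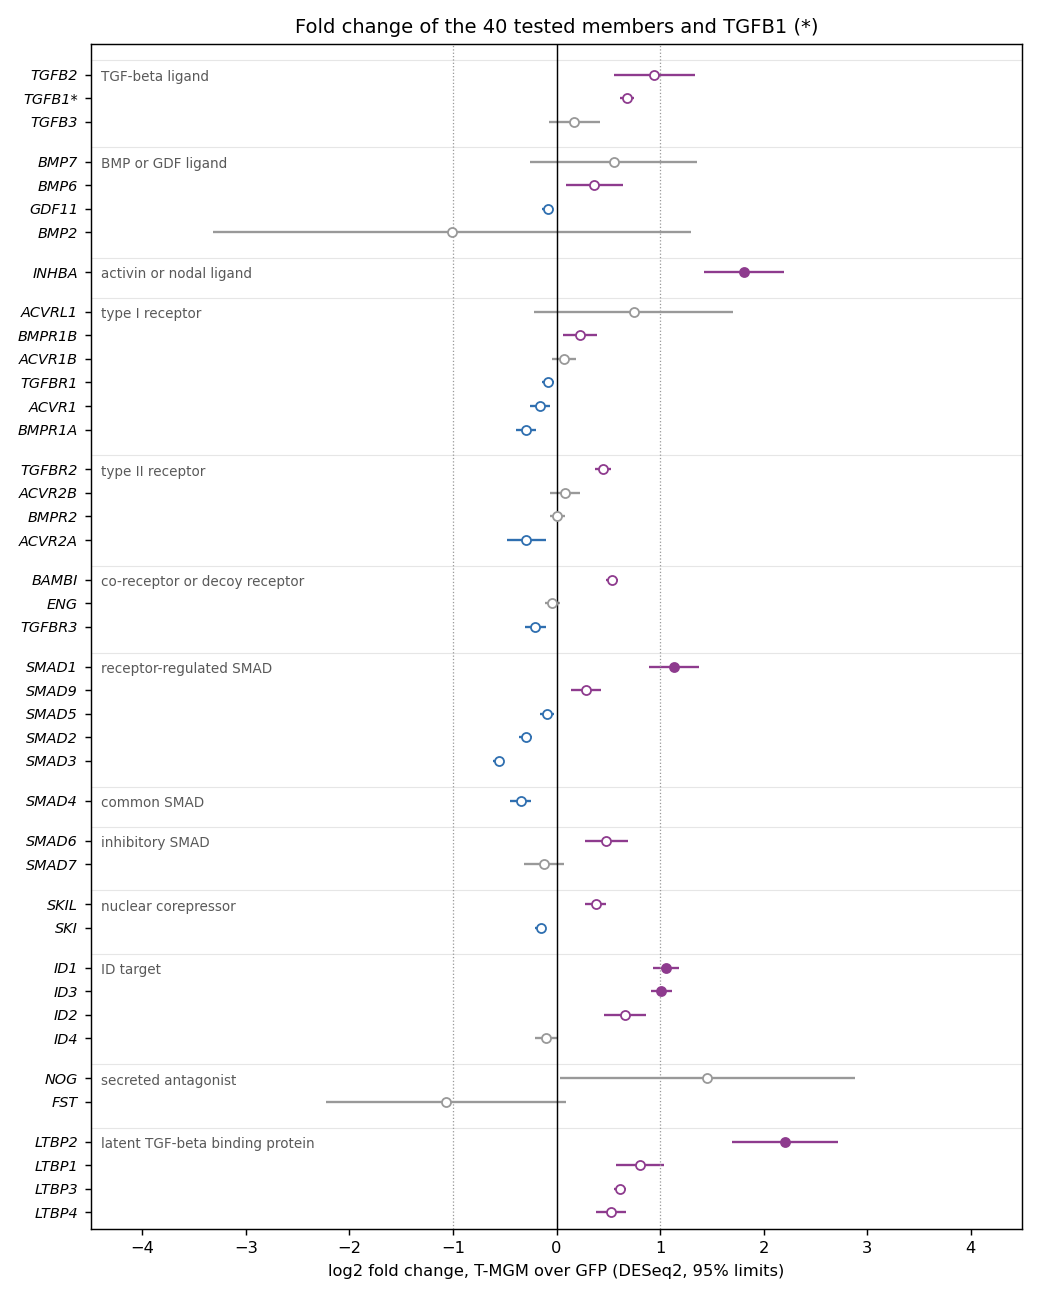
Log2 fold change (T-MGM over GFP) with 95% limits for the 40 tested members and TGFB1, which is marked by an asterisk, in order of role; purple passed the test and is higher, blue passed and is lower, grey did not pass, and filled points also changed over 2-fold. The 5 filled points, LTBP2, INHBA, SMAD1, ID1 and ID3, all lie to the right of the dotted line at 1, and no passed member lies left of the one at -1.

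Among the ligands, INHBA, which encodes the subunit of activin A, rose most. INHBA (ENSG00000122641.11, chromosome 7, 41667168 to 41705834 on GRCh38, minus strand) had 152, 181 and 241 normalized counts in the GFP libraries, against 639, 633 and 744 in the T-MGM libraries. Every T-MGM library was thus well above every GFP library. The mean went from 191 ± 45.3 to 672 ± 62.4 (SD, n = 3), which is 1.81 ± 0.20 (SE) on the log2 scale (DESeq2 adjusted p = 4.25e-19). INHBA was called under every alternative tried, with log2 fold changes of 1.04 to 1.84, and of 1.68 to 2.01 when each library was left out in turn. Per transcript length INHBA was still a low gene, at 0.73 ± 0.21 TPM in GFP and 2.54 ± 0.22 TPM in T-MGM. An annotated antisense gene, INHBA-AS1, overlaps it. The kit named in the labels does not keep strand and the one named in the study's methods does, so reads of INHBA and INHBA-AS1 may not be told apart, and the same holds for other members with an antisense partner.

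The window around the RefSeq start of INHBA was searched on both strands, as were the windows of other members, for the letters of 4 motifs. These were the E-box that MITF binds (CATGTG or CACGTG), the MAF half-site (TGCTGA), the SMAD element (CAGAC) and the BMP element of SMAD1 and SMAD5 (GGCGCC). An E-box and a SMAD element can share a base, as they do in the window of TGFB2, where they start at -49 and -53. Each window holds 250 bases before the start and 50 bases from it on (RefSeq, GRCh38.p14, minus strand, chr7:41703041-41703340). INHBA is shown because it is the ligand with the largest change and its window holds an E-box at 42, a MAF half-site at -97 and a SMAD element at 28, counted from the start base as 1. The capitals mark these 3 matches, each read on either strand.
INHBA: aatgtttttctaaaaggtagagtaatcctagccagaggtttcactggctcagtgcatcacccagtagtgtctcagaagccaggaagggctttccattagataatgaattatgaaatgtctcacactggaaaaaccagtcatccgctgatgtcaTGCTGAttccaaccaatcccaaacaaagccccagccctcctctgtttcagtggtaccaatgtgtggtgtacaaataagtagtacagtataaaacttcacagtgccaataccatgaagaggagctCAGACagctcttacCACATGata

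Of all 35116 windows, 17.6% held the E-box, 17.3% the MAF half-site, 45.3% the SMAD element and 19.2% the BMP element. RefSeq windows were found for 40 of the 47 genes, 72 windows in all. Of these windows, 11 held the E-box (15.3%), 13 the MAF half-site (18.1%), 36 the SMAD element (50%) and 18 the BMP element (25%). The shares among members thus lay near those among all windows. A match describes letters only, and the absence of one says nothing of a factor elsewhere.

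TGFB1 and TGFB2 were also higher in T-MGM, whereas TGFB3 did not pass. TGFB1 (chromosome 19, 41301587 to 41353922) had normalized counts of 2745, 2751 and 2942 in GFP, against 4512, 4452 and 4539 in T-MGM. The replicates were tight and the groups far apart, with a log2 fold change of 0.68 ± 0.03 (DESeq2 adjusted p = 2.31e-91). Several annotated genes overlap TGFB1, among them HNRNPUL1 and TMEM91 on the opposite strand. TGFB2 (chromosome 1, 218345336 to 218444619) had counts of 82.7, 62.8 and 97.1 in GFP, against 142, 148 and 175 in T-MGM. No library of either group reached into the other, and the log2 fold change was 0.95 ± 0.20 (adjusted p = 1e-05). It came to 1.09 after correction for GC content and length and to 1.32 on log2(TPM + 0.1), that is past 2-fold, as it was without GFP replicate 3 (1.10) and, barely, without T-MGM replicate 1. TGFB2-AS1 overlaps it on the opposite strand and TGFB2-OT1 on the same one.

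TGFB3 had 204 to 239 normalized counts in GFP and 246 to 250 in T-MGM. These ranges did not meet, yet the fold change of 1.13 had 95% limits of 0.95 to 1.34 (DESeq2 adjusted p = 0.317), and its sign turned on the TPM scale. In TPM the summed level of the 3 TGF-beta genes was 24.2, 24.4 and 27.3 in GFP, against 34.9, 33.8 and 34.8 in T-MGM. TGFB1 supplied most of it, 87.8% ± 1.86 in GFP and 89.4% ± 1.31 in T-MGM, so the make-up of the sum hardly differed between the groups.

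Of the BMP and GDF ligands, BMP6 rose and GDF11 fell, both by well under 2-fold. BMP6, a BMP with a role in iron balance, had normalized counts of 170, 197 and 233 in GFP, against 248, 240 and 284 in T-MGM. The nearest libraries of the groups were close, and the log2 fold change of 0.37 ± 0.14 (DESeq2 adjusted p = 0.0271) was no longer past the threshold in 6 of 10 alternatives, the correction for GC content and length among them, nor in 4 of 6 fits that left out a library (without GFP replicate 1 or 2, or T-MGM replicate 1 or 3). GDF11, which patterns the axis of the embryo, was the most abundant of these ligands at 17.4 ± 1.02 TPM in GFP. Its normalized counts of 5773, 5757 and 6014 in GFP, against 5417, 5544 and 5554 in T-MGM gave a log2 fold change of -0.09 ± 0.03 (adjusted p = 0.00332), which did not pass on the TPM scale or without GFP replicate 3. BMP7 had 18.0 to 22.7 counts in GFP and 22.9 to 33.2 in T-MGM and did not pass (1.47-fold, 95% limits 0.84 to 2.57). BMP2 had at most 8.39 normalized counts in any library and did not pass (0.50-fold, 95% limits 0.10 to 2.47).

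The remaining ligands were at the limit of detection. BMP4 and GDF6 had at most 3 reads in every library, which is the floor used here. INHBB had 0 to 8 reads in GFP and 0 in T-MGM, INHBE at most 7, and NODAL 5 reads in T-MGM replicate 1 and 0 elsewhere. No fold is given for these 5 genes, none of which could be tested.

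**Figure D2:**
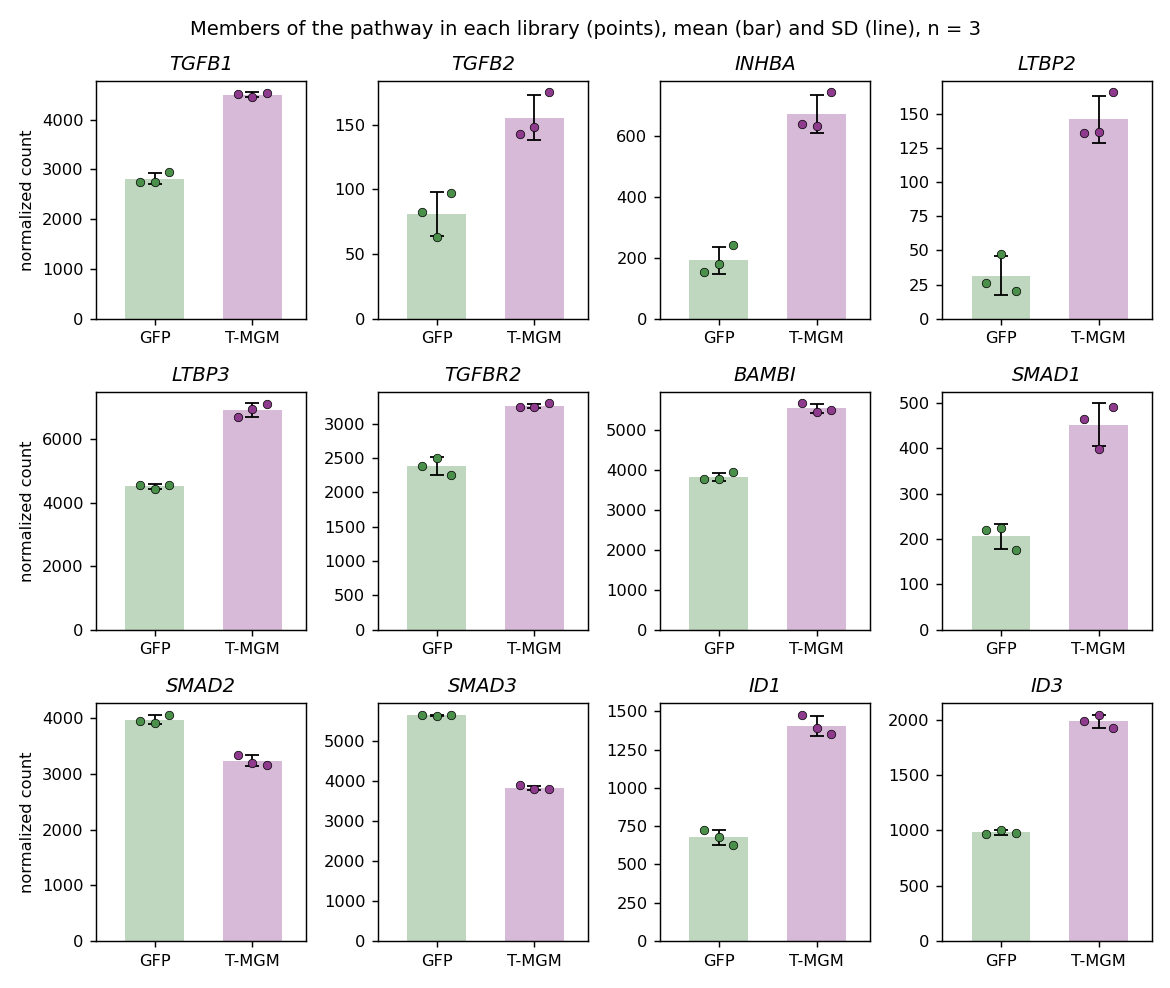
Normalized count (y axis, from 0) of 12 genes, TGFB1 among them, in each library (points), with the mean (bar) and SD (line) of the 3 GFP and 3 T-MGM libraries. The genes shown had all passed the test, and the points of the groups do not overlap in any panel. Over all genes tested, 46.8% had groups that did not overlap. SMAD2 and SMAD3 are lower in T-MGM and the other 10 are higher.

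All 4 genes for latent TGF-beta binding proteins, which hold TGF-beta in the matrix in its inactive form or, for LTBP2, act as matrix proteins, were higher in T-MGM. LTBP2 (chromosome 14, 74498183 to 74612378, minus strand) had normalized counts of 26.4, 47.6 and 20.6 in GFP, against 136, 137 and 166 in T-MGM. The lowest T-MGM library stood far above the highest GFP library, with a log2 fold change of 2.21 ± 0.26 (DESeq2 adjusted p = 5.53e-16). LTBP2 is nonetheless a scarce transcript, at 0.077 ± 0.038 TPM in GFP and 0.32 ± 0.030 TPM in T-MGM. On log2(TPM + 1) without a filter its log2 difference was only 0.29.

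LTBP3, the most abundant of the 4, had normalized counts of 4565, 4440 and 4570 in GFP, against 6692, 6952 and 7112 in T-MGM (log2 fold change 0.61 ± 0.03, DESeq2 adjusted p = 2.8e-104). LTBP1 had 209, 241 and 193 in GFP, against 372, 371 and 383 in T-MGM (0.81 ± 0.12, adjusted p = 8.59e-11). In LTBP4 the values were 622, 656 and 644 against 855, 984 and 936 (0.53 ± 0.07, adjusted p = 3.86e-12). None of the 4 genes had a GFP library as high as any T-MGM library. The groups also did not overlap in 7683 of the 12652 genes tested that averaged 50 or more normalized counts. LTBP1 and LTBP4 did not pass on the TPM scale, where every direction was kept. The summed TPM of the 4 genes was 53.9, 62.8 and 55.9 in GFP, against 72.0, 86.4 and 76.7 in T-MGM, mostly from LTBP3. The other genes within 10 Mb of LTBP3 had a median log2 fold change of 0.23, and its part in the LTBP3 change was not tested.

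Receptor genes moved little and in both directions. Of the 13 receptor, co-receptor and decoy genes, all tested, 3 rose and 5 fell, none over 2-fold. Of all genes averaging 50 or more normalized counts, 54.0% passed and 3.21% were called, so these counts lie near the shares over all genes. Of the type I receptors, BMPR1A, which binds BMPs, fell from 2053, 1883 and 2069 normalized counts to 1657, 1557 and 1669 (log2 fold change -0.30 ± 0.05, DESeq2 adjusted p = 5.66e-09). The groups were apart, and the fall passed in all 10 alternatives and all 6 fits without a library. ACVR1 had 1609, 1615 and 1689 in GFP, against 1470, 1418 and 1502 in T-MGM (-0.16 ± 0.05, adjusted p = 0.00298). TGFBR1, the TGF-beta type I receptor, had 4635, 4646 and 4686 against 4309, 4360 and 4498 (-0.08 ± 0.03, adjusted p = 0.00986). These TGFBR1 values do not overlap but differ little, and after correction for GC content and length the gene passed as higher (0.08, adjusted p = 0.0103). It did not pass without GFP replicate 3 or without T-MGM replicate 1. ACVR1 did not pass after the GC correction (-0.08). BMPR1B rose by 1.17-fold (adjusted p = 0.0173) with groups that overlapped in normalized counts (629 to 715 and 692 to 855) and in TPM. It did not pass with total counts, on the TPM scales or in 4 of 6 fits that left out a library (GFP replicate 1 or 2, T-MGM replicate 1 or 3).

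ACVR1B and ACVRL1 did not pass. ACVR1B had 986 to 1078 normalized counts in GFP and 1023 to 1128 in T-MGM, a fold of 1.05 with 95% limits of 0.97 to 1.14, and ACVRL1, a receptor best known from vessels, had 8.39 to 17.3 and 19.5 to 26.6. The summed TPM of the 6 type I receptors was 46.6, 45.7 and 47.9 in GFP, against 37.2, 37.9 and 39.2 in T-MGM, a ratio of 0.81. The T-MGM libraries were the lower ones in each case. On log2(TPM + 1) the median log2 difference of the genes averaging 50 or more normalized counts was -0.13.

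Of the type II receptors, TGFBR2, which binds TGF-beta itself, was higher in T-MGM. It had 2391, 2507 and 2254 normalized counts in GFP and 3245, 3241 and 3295 in T-MGM (log2 fold change 0.45 ± 0.04, DESeq2 adjusted p = 2.3e-30). The T-MGM values were nearly alike and all above GFP. The median of its neighbours within 10 Mb was 0.21. ACVR2A, an activin receptor, had 524, 481 and 471 against 423, 367 and 413 (-0.29 ± 0.10, adjusted p = 0.0071), which did not pass without GFP replicate 1 or without T-MGM replicate 2, nor after correction for GC content and length. ACVR2B and BMPR2 did not pass, with folds of 1.06 (95% limits 0.96 to 1.17) and 1.01 (0.96 to 1.06). After that correction BMPR2 was 0.17 higher on the log2 scale (adjusted p = 3.3e-05).

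BAMBI, a decoy receptor that lacks the kinase and damps TGF-beta and BMP signals, was among the most abundant members at 49.4 ± 1.42 TPM in GFP and 64.5 ± 1.54 TPM in T-MGM, close to LTBP3 (45.6 ± 3.14 and 63.9 ± 6.40 TPM). It had 3775, 3774 and 3944 normalized counts in GFP, against 5673, 5455 and 5521 in T-MGM. The groups were far apart beside a spread of a few percent, with a log2 fold change of 0.53 ± 0.03 (DESeq2 adjusted p = 5.07e-73). TGFBR3 (betaglycan), a co-receptor that presents TGF-beta2, fell from 1802, 1681 and 1676 to 1525, 1561 and 1393 (-0.21 ± 0.05, adjusted p = 0.000349), with neighbours at -0.25. The fall did not pass on the TPM scale. ENG (endoglin) had 2798 to 2896 and 2727 to 2800 and did not pass, with a fold of 0.97 (95% limits 0.93 to 1.02).

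Of the receptor-regulated SMADs, SMAD2 and SMAD3 fell, SMAD1 and SMAD9 rose, and SMAD5 fell slightly. SMAD3 (ENSG00000166949.16, chromosome 15, 67063763 to 67195173, plus strand) had normalized counts of 5646, 5616 and 5645 in GFP, against 3883, 3795 and 3806 in T-MGM. The GFP libraries were nearly alike and all T-MGM libraries lay far below, at a log2 fold change of -0.56 ± 0.03 (DESeq2 adjusted p = 5.01e-92). This value stayed between -0.62 and -0.55 in all 10 alternatives. The neighbours of SMAD3 within 10 Mb had a median of 0.04.

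SMAD1 (chromosome 4, 145481194 to 145559176, plus strand) had normalized counts of 221, 224 and 175 in GFP, against 465, 399 and 490 in T-MGM. Each T-MGM library was above each GFP library, and the mean went from 207 ± 27.6 to 451 ± 47.0 (log2 fold change 1.13 ± 0.12, DESeq2 adjusted p = 8.1e-19). On the TPM scale the change was under 2-fold (0.75 to 0.96) but passed. SMAD1-AS1 and SMAD1-AS2 overlap SMAD1 on the opposite strand. SMAD2 had 3951, 3919 and 4070 in GFP, against 3350, 3194 and 3166 in T-MGM (-0.30 ± 0.03, adjusted p = 1.34e-18). The groups do not overlap, and the genes around SMAD2 within 10 Mb had nearly the same median, -0.29.

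SMAD9 had 572, 588 and 575 normalized counts in GFP and 707, 717 and 689 in T-MGM (log2 fold change 0.28 ± 0.08, DESeq2 adjusted p = 0.000619), which did not pass on the TPM scale. SMAD5 had 4198 to 4340 in GFP and 3849 to 4211 in T-MGM, so the groups overlap. Its log2 fold change of -0.09 (adjusted p = 0.0161) did not pass in 5 of 10 alternatives or in 4 of 6 fits without a library (GFP replicate 1 or 3, T-MGM replicate 2 or 3). SMAD4, the common partner, had 2115, 2120 and 2302 in GFP, against 1876, 1663 and 1603 in T-MGM. All T-MGM libraries were lower, at -0.35 ± 0.05 (adjusted p = 6.4e-10), beside a neighbour median of -0.30 on the same arm, 18q, as SMAD2.

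Set side by side in TPM, the SMADs of the TGF-beta and activin branch were the more abundant in both groups. SMAD2 and SMAD3 summed to 54.5, 63.7 and 62.9 TPM in GFP and 44.1, 38.5 and 42.7 in T-MGM. The sum of SMAD1, SMAD5 and SMAD9 was 26.5, 25.2 and 27.8 in GFP, against 28.8, 24.9 and 24.4 in T-MGM. The first sum was lower in every T-MGM library and the second overlapped between the groups, the rise of SMAD1 being set against the much larger SMAD5. The ratio of the second sum to the first, taken within each library, was 0.49, 0.40 and 0.44 in GFP, against 0.65, 0.65 and 0.57 in T-MGM. These sums combine members whose fold changes were known, so they are given as a description.

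Windows of SMAD1 and SMAD3 are shown because these SMADs moved furthest, in opposite directions; both are on the plus strand (RefSeq, GRCh38.p14), and each is the most upstream of 5 starts. The SMAD1 window (chr4:145481056-145481355) has an E-box at -25. Windows of later SMAD1 starts, not shown, hold BMP elements at -235, -93, -249 and -211, a SMAD element at -83 and an E-box at 6. The SMAD3 window (chr15:67065352-67065651) has an E-box at -173, BMP elements at -136 and -106 and a SMAD element at 7. Windows of later SMAD3 starts hold SMAD elements and MAF half-sites. The capitals mark the matches in the windows shown.
SMAD1: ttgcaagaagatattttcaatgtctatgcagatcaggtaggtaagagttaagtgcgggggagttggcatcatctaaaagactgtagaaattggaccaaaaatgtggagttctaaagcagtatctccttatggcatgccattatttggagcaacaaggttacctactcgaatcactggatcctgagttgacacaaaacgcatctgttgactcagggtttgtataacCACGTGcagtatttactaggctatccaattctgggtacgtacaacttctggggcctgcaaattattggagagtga
SMAD3: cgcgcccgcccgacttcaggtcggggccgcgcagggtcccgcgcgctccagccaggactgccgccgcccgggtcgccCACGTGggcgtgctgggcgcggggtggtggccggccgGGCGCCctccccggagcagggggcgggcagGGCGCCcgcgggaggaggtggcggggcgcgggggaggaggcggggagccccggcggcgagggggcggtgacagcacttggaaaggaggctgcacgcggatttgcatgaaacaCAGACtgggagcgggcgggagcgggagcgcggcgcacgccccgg

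Of the inhibitory SMADs, SMAD6, which restrains mainly BMP signals, had normalized counts of 349, 287 and 305 in GFP, against 414, 443 and 454 in T-MGM (log2 fold change 0.48 ± 0.11, DESeq2 adjusted p = 2.36e-05). The groups are apart in counts but not in TPM (1.56 to 2.88 and 1.92 to 2.43), where the gene did not pass. SMAD7, which restrains both branches, had 431 to 442 and 373 to 445 and did not pass, with a fold of 0.92 and 95% limits of 0.80 to 1.05. The nuclear corepressors moved apart. SKIL (SnoN) rose from 1330, 1284 and 1366 to 1729, 1631 and 1810 (0.38 ± 0.05, adjusted p = 2.74e-12), not passing on the TPM scale, and SKI fell from 4999, 5193 and 4919 to 4462, 4574 and 4544 (-0.15 ± 0.03, adjusted p = 3.56e-07). Both genes had lower neighbours, at -0.18 for SKIL and -0.26 for SKI.

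**Figure D3:**
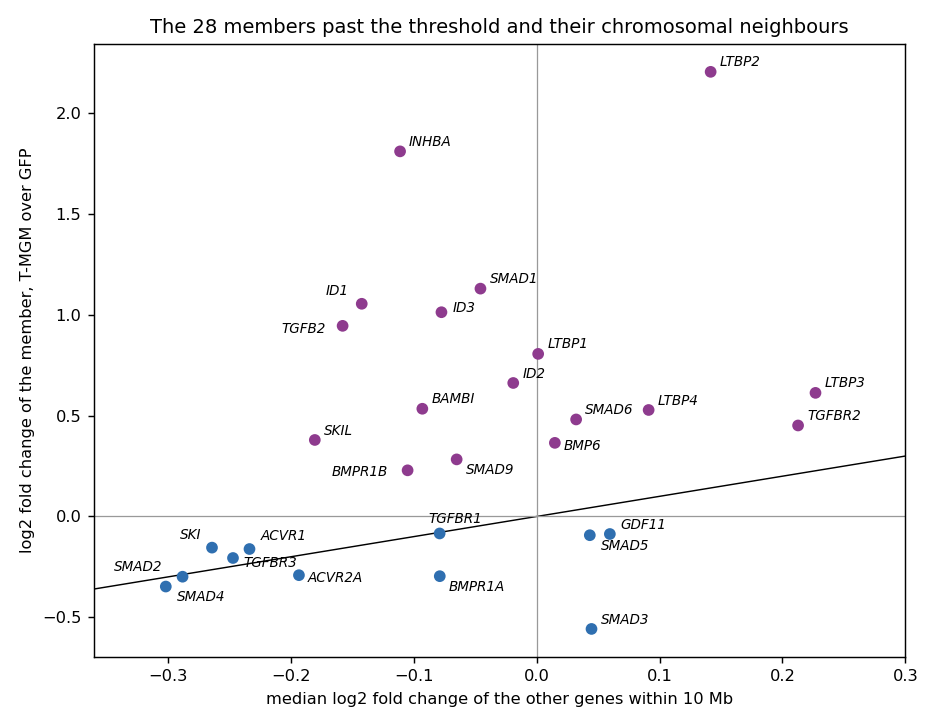
Log2 fold change of the 28 members that passed (y axis) against the median log2 fold change of the other genes within 10 Mb (x axis); purple members are higher and blue ones lower in T-MGM, and the line marks equal values. SMAD2, SMAD4 and TGFBR1 lie on or near the line, SMAD3 lies well below it, and every purple member lies above it.

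Genes of some chromosome arms moved together in these libraries. The arm medians were -0.30 for 18q, which holds SMAD2, SMAD4 and SMAD7, -0.22 for 2q, which holds ACVR1, ACVR2A and BMPR2, and 0.24 for 3p, which holds TGFBR2 and ACVR2B. Of the 11 members that fell, 6 had neighbours with a median under -0.1, and of the 17 that rose, 3 had neighbours above 0.1. Over all genes with a mean of at least 50 these shares were 39.9% and 32.0%. SMAD2 differed from its neighbours by -0.01 and SMAD4 by -0.05 on the log2 scale, whereas SMAD3 differed by -0.60. LTBP2, INHBA, ID1, SMAD1, TGFB2 and ID3 exceeded their neighbours by 2.07, 1.92, 1.2, 1.18, 1.10 and 1.09. What moved the arms was not tested.

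ID1, ID2 and ID3, which encode dimer partners of basic helix-loop-helix factors without a DNA-binding domain, were higher in T-MGM, and ID4 did not pass. ID1 (ENSG00000125968.9, chromosome 20, 31605283 to 31606515, plus strand) had normalized counts of 724, 680 and 626 in GFP, against 1479, 1392 and 1349 in T-MGM. No library lay between the groups (log2 fold change 1.06 ± 0.07, DESeq2 adjusted p = 1.4e-56). ID3 (chromosome 1, 23557926 to 23559501, minus strand) had 963, 1004 and 980 in GFP, against 1987, 2046 and 1923 in T-MGM (1.01 ± 0.05, adjusted p = 3.38e-85). The ID3 groups were as clearly separate, with a spread of a few percent in each. Both genes lie close to the 2-fold limit. ID1 was at 0.94 after correction for GC content and length, and ID3 was at 0.92 there, at 0.96 with total counts, at 0.99 without T-MGM replicate 2 and just under 1 without GFP replicate 1. On the TPM scales both were at 0.84 to 0.89.

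ID2 had normalized counts of 359, 365 and 295 in GFP, against 494, 558 and 559 in T-MGM (log2 fold change 0.66 ± 0.10, DESeq2 adjusted p = 7.74e-10), with ID2-AS1 on the opposite strand. ID4 had 1251 to 1347 and 1191 to 1214. The ID4 groups do not overlap, but the fold of 0.93 had 95% limits of 0.87 to 1.00 (adjusted p = 0.136). In TPM the order of the levels was ID3, ID1, ID2, ID4 in both groups, with 25.8, 16.3, 10.6 and 6.77 TPM for GFP, against 47.0, 30.3, 14.3 and 5.69 TPM for T-MGM. ID1 and ID3 made up 70.1% to 71.2% of the summed ID level in the GFP libraries and 79.0% to 79.8% in the T-MGM libraries.

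The windows of ID1 and ID3 are shown because these 2 genes rose by nearly the same factor (RefSeq, GRCh38.p14; ID1 chr20:31605039-31605338, plus strand, and ID3 chr1:23559452-23559751, minus strand). The ID1 window holds none of the 4 motifs, so it has no capitals. The ID3 window holds a SMAD element at -147, in capitals.
ID1: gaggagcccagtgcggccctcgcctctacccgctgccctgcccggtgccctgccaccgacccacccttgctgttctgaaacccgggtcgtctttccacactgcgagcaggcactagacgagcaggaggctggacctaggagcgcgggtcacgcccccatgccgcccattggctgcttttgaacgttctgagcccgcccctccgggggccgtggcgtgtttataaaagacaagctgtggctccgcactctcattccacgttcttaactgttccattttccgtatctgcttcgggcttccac
ID3: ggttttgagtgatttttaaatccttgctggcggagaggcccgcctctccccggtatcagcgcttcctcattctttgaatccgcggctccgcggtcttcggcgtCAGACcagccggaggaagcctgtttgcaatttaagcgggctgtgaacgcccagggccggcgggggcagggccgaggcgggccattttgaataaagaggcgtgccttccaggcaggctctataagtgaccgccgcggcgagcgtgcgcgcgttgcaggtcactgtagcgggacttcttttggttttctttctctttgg

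The secreted antagonists were nearly silent. NOG (noggin) had 2 to 6 reads in GFP and 11 to 19 in T-MGM, which did not pass (DESeq2 adjusted p = 0.104) though the groups do not overlap. FST (follistatin), which binds activin, had 9.74 to 22.8 normalized counts in GFP and 6.64 to 10.9 in T-MGM (adjusted p = 0.154). GREM1 had at most 4 reads in any library and could not be tested. None of the 3 genes exceeded 0.26 TPM.

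**Figure D4:**
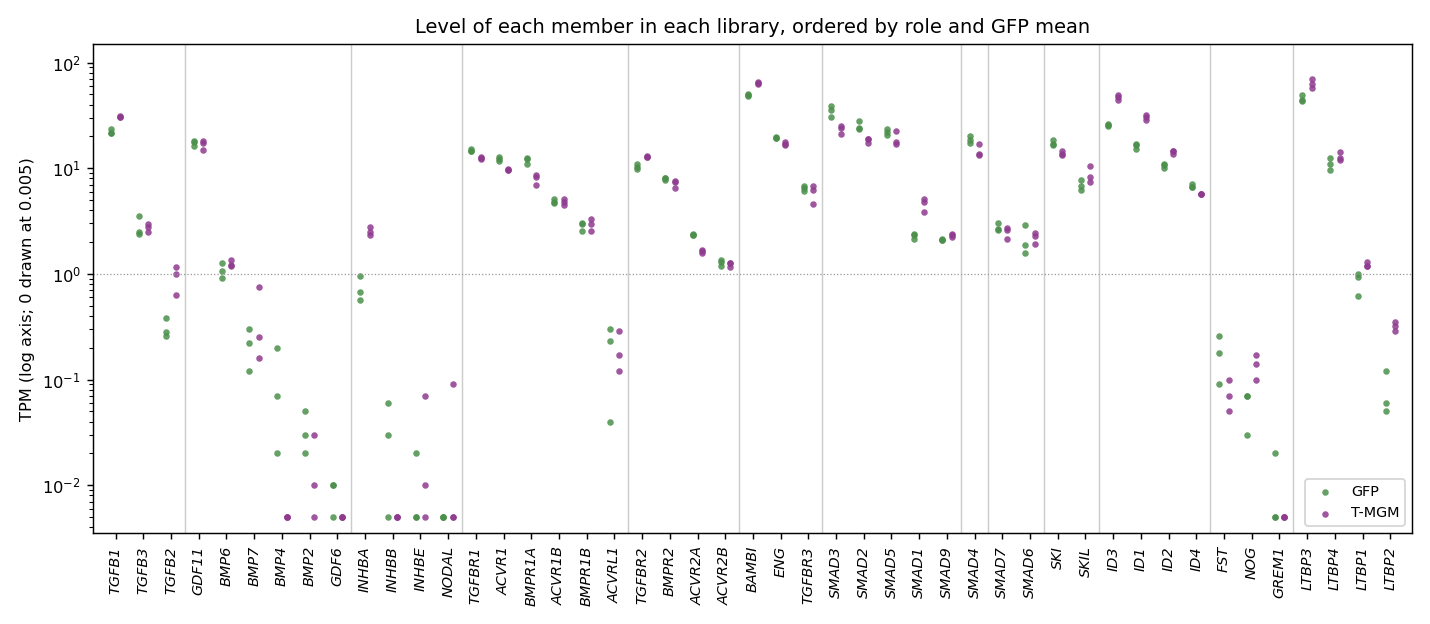
Level of all 47 genes in TPM (log axis, values of 0 drawn at 0.005) in each of the 3 GFP (green) and 3 T-MGM (purple) libraries, in order of role. BAMBI and LTBP3 were the most abundant, at 49.4 and 45.6 TPM in GFP, while BMP4, GDF6, INHBB, INHBE, NODAL and GREM1 lay at or near 0.

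Genes outside the 46 that belong to the same pathways were read from 6 further lists with 102 genes, of which 85 were tested, 27 rose and 18 fell, and 8 were called, where 19.2% of all genes tested passed in each direction and 4.63% were called. Among genes averaging 50 or more normalized counts 54.0% passed. All 6 lists were chosen with earlier results of these data known, so their counts and medians are a description only. Of 20 genes known to respond to TGF-beta, all tested, 12 rose and 1 fell, and the median log2 fold change was 0.39, against -0.0027 over all genes tested. CCN2, a matricellular protein, had normalized counts of 1218, 1303 and 1227 in GFP, against 4019, 3738 and 3969 in T-MGM (log2 fold change 1.65 ± 0.04). The T-MGM libraries all stood far above the GFP libraries. BHLHE40, a helix-loop-helix repressor, rose by 0.56 and FN1 (fibronectin) by 0.20 on the log2 scale. The other called genes of this list were ANGPTL4, IL11, ADAM19 and COL1A1, with log2 fold changes of 2.79, 1.82, 1.6 and 1.23. The gene that fell was SNAI2 (-0.57). ANGPTL4 was a low gene, its mean normalized count going from 17.1 (GFP) to 118 (T-MGM). So were IL11, going from 21.4 to 76.0, and COL1A1, going from 24.9 to 58.5. The mean TPM of COL1A1 went from 0.17 to 0.23. ADAM19 stood higher, going from 149 to 451 normalized counts. The 7 genes that did not pass were CCN1, TAGLN, COL4A1, JUNB, ADAM12, NEDD9 and PDGFB. Besides CCN2, BHLHE40 and FN1, the genes of this list were named after their values were seen. Many of them answer to other pathways too.

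Of 7 genes known to respond to BMP, 4 rose and 1 fell. HEY1, a repressor that Notch also induces, fell from 1909, 1824 and 2027 normalized counts to 1017, 1047 and 1033 (log2 fold change -0.90 ± 0.05). The T-MGM libraries all stood near the same low level. RUNX2, a bone transcription factor, rose by 0.33 and ATOH8 by 0.96 on the log2 scale.

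**Figure D5:**
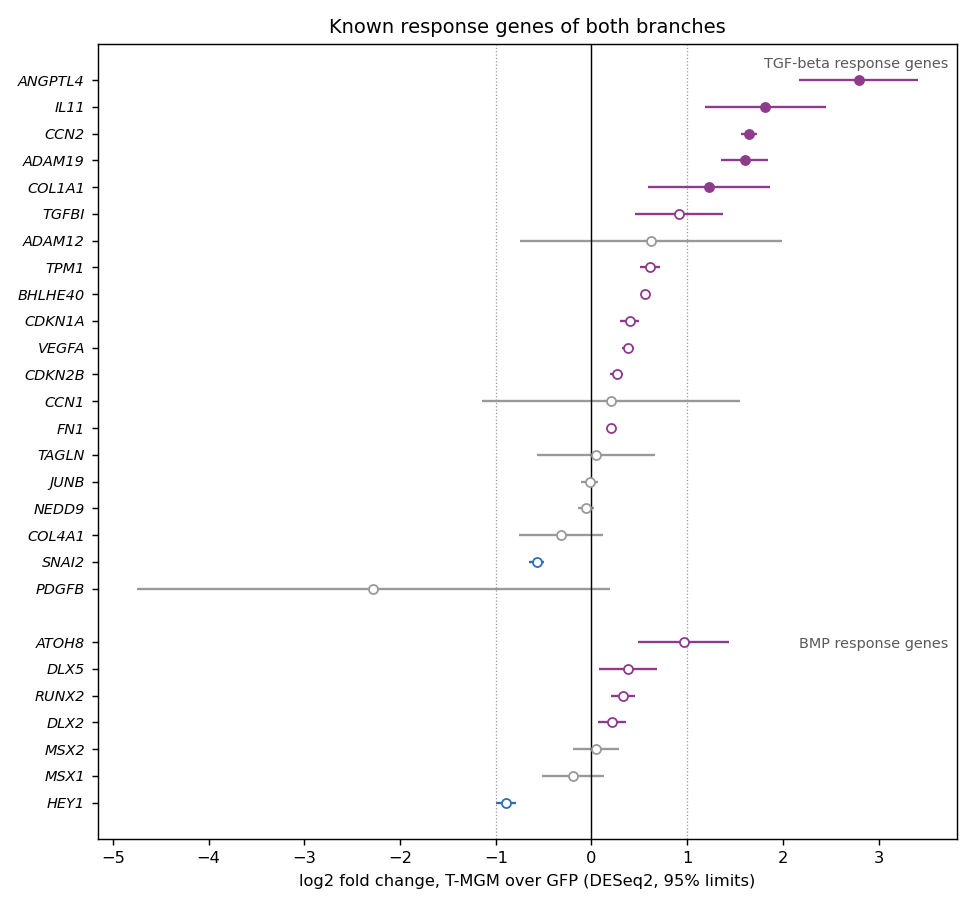
Log2 fold change (T-MGM over GFP) with 95% limits for 20 genes known to respond to TGF-beta and 7 known to respond to BMP; purple passed and is higher, blue passed and is lower, grey did not pass, and filled points also changed over 2-fold. The 5 filled points, ANGPTL4 to COL1A1, are all TGF-beta response genes; SNAI2 and HEY1 are the blue points.

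Of 24 intracellular regulators of the pathway, all tested, 4 rose and 9 fell, none over 2-fold, a share near the 54.0% of all genes averaging 50 or more counts. FKBP1A, which holds type I receptors inactive, fell by 0.31, NEDD4L, a ubiquitin ligase for SMAD2 and SMAD3, by 0.53 and TRIM33, which acts on SMAD4, by 0.40 on the log2 scale. Of 16 tested receptors, co-receptors and latency proteins, 5 rose and 3 fell. NEO1 (neogenin), the receptor of the RGM family of BMP co-receptors, had normalized counts of 1296, 1259 and 1126 in GFP, against 2663, 2738 and 2852 in T-MGM, and was the called gene (1.17 ± 0.05). FURIN, the protease that matures TGF-beta precursors, rose by 0.55, and ITGB8, whose integrin releases latent TGF-beta, fell by 0.69.

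Of 10 other ligands that were tested, 2 rose and 2 fell. GDF15, the most abundant of them at a mean of 152 TPM in GFP and 131 TPM in T-MGM, fell by 0.06 on the log2 scale. BMP8B rose by 0.37 on the log2 scale, and INHA, the inhibin subunit, was called at 1.10 from 15.6, 23.8 and 22.8 normalized counts in GFP to 53.8, 51.7 and 29.5 in T-MGM. T-MGM replicate 3 lay close to the GFP libraries. GDF1 was also called, lower, but had 281, 54.1 and 0 in GFP and 0 in each T-MGM library, so GFP replicate 3 did not differ from T-MGM and no fold is given. Of 8 tested antagonists, FSTL1 (-0.15) and NBL1 (-0.09) fell and none rose.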

How the data were processed

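RNA of 6 WM164 libraries (3 GFP, 3 T-MGM, grouped by sample title) was sequenced. The authors trimmed reads with cutadapt 1.8.1, aligned them to GRCh38 with STAR 2.7.7a and counted reads per gene with featureCounts, and the deposited counts are whole numbers that are not normalized. The authors also deposited TPM values per gene from RSEM 1.3.0, which were used for levels and alternatives. Counts of all 58870 rows were fitted here with DESeq2 1.42.0 in R 4.3.3 (group as the only term, median-of-ratios size factors, Wald test, independent filtering, no shrinkage of fold changes), with Benjamini-Hochberg adjustment over all genes tested. The dispersion trend of DESeq2 was a local fit, its fallback when the parametric one fails. A member passed at an adjusted p at or under 0.05 and was called if it also changed over 2-fold, the study's thresholds. The test is 2-sided. Normalized counts are counts divided by the size factor, the floor is 3 counts per library, and floors and depth cover counting error only. Positions and overlaps are from GENCODE 44. Neighbours are genes within 10 Mb that averaged 50 or more normalized counts.

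Every called member, and in each role up to 3 members that passed by absolute Wald statistic, is given in every library. In each list of other pathway genes up to 3 such genes and the called genes are named. The members and lists were chosen with earlier results of these data known. A gene of the lists of other pathway genes is not reported here. Alternatives were edgeR 4.0.16 (quasi-likelihood), TMM factors, total counts, a filter of 10 counts in 3 libraries, no independent filtering, a replicate block, a correction for GC content and length (lowess span 0.3; 99.3% of genes had a GC value), limma 3.58.1 on log2(TPM + 1) and log2(TPM + 0.1) with at least 0.5 TPM in 3 libraries, log2(TPM + 1) without that filter, and leaving out each library. A fold on these TPM scales understates the change of low genes. The scripts were tested on simulated data.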

Additional observations from a re-analysis of the deposited data

How the results depend on the processing

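Over 41 genes (40 members and TGFB1) and 10 alternatives, 329 fold changes kept their direction and their side of the threshold, 40 no longer passed, 10 came to pass and 15 turned sign; over the 6 fits that left out a library these counts were 223, 17, 0 and 2. Low genes (BMP2, BMP7, ACVRL1, FST, LTBP2 and NOG) had no value in some alternatives, and BMP2 in 4 of the fits without a library. On log2(TPM + 1), log2(TPM + 0.1) and unfiltered log2(TPM + 1), TGFB3 was at -0.0108, -0.0101 and -0.0108, ACVR1B at -0.0119, -0.0141 and -0.0119, ACVR2B at -0.0235, -0.0391 and -0.0235 and BMPR2 at -0.133, -0.149 and -0.133. BMPR2 was at -0.0443 with total counts and between -0.0182 and 0.0313 without a library. After correction for GC content and length TGFBR1 was at 0.0844 and ID4 at 0.0327. ENG and ID4 passed as lower with total counts and on the TPM scales, and ENG also after the GC correction.

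The 28 members past the threshold came to 25 with the replicate block, 26 after the GC correction, 19 on each TPM scale and 24 to 26 without a library. The 5 called members came to 5 with the replicate block, 4 with total counts, 4 after the GC correction, 1, 2 and 1 on the 3 TPM scales and 4 to 6 without a library. On these scales 133, 369 and 126 genes of all were called in place of 885, and 4295 passed without a filter in place of 7350. Higher against lower passes of all genes were 3675 and 3675 as reported, 2926 and 4635 with total counts, and 1154 and 4360 on log2(TPM + 1). On that last scale the median of the genes averaging 50 or more normalized counts was -0.13. Without a library 6461 to 6623 genes passed and 765 to 810 were called. The cause of these shifts was not tested. Same-numbered libraries of the groups did not deviate together (r of -0.0067, -0.058 and 0.029 over 12654 genes). With 3 libraries in each group these values cannot tell whether same-numbered libraries were prepared together. The numbers are used here as names of libraries.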
